A study of Mus musculus with 8 samples.

Results

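Arginine codons are read in the mouse by tRNAs with 5 different anticodons, and fragments of all of these tRNAs were present in sorted pancreatic β-cells. They were taken as every sequence of the count table that was named for an arginine tRNA, which gave 199 of the 2226 tRNA-derived fragments (tRFs) listed. Arg-TCT had 55 sequences, Arg-CCG 42, Arg-TCG 37, Arg-ACG 33 and Arg-CCT 32. The rule uses the names in the table only. How a single name was chosen for a sequence that matches several tRNAs is not stated in the sources used here, so each sequence was taken as named in the table.

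Small RNA was sequenced from 4 libraries of db/db β-cells and 4 of wild-type β-cells, from male mice of 8 weeks. The db/db mice (BKS.Cg-Dock7m+/+LeprdbJ) lack a working leptin receptor and become obese and diabetic, and the wild type (BKS.Cg-Dock7m+/+) shares their background with its Dock7m allele. Islets of several animals were pooled for each sort, and the β-cells were gated by autofluorescence among CD45-negative cells, so a library stands for a pool and not for a mouse. By the paper's methods a pool held fewer db/db than wild-type mice. The table holds tRFs only, so no marker of β-cells or of another islet cell could be looked up. The tRF counts ranged from 582165 to 2946290 per library and were 20.01 to 55.7% of all counts of a library. Arginine fragments made up 27321 to 186624 of them, and replicate libraries of a genotype all differed beyond counting noise.

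A tRNA folds into an acceptor stem and 3 arms, of which the anticodon arm reads the codon and the T arm lies near the 3′ end. Every mature tRNA ends in CCA, which the enzyme TRNT1 adds after transcription and which must be complete before an amino acid can be attached. Cuts in the T arm release short 3′ fragments that carry the CCA, cuts in the anticodon loop release longer tRNA pieces, and fragments of both kinds are known from stressed cells.

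The arginine fragments were nearly all 3′ fragments. A complete CCA closed 169 of the 199 sequences, 4 sequences ended 1 to 3 bases inside that end (called trimmed here), and 26 were classed as internal. Of the trimmed sequences 3 belonged to Arg-ACG and 1 to Arg-TCT. None met the rule for a 5′ fragment, which asks for at least 5 sequences of 1 tRNA that begin alike. Among those short of it were 3 Arg-ACG sequences that begin alike, such as gggccagtggcgcaatggataac. Their first bases, gggccag, can pair with ctggctc near the end of Arg-ACG fragments such as cctggctggctcgcca, as in an acceptor stem. They may therefore be 5′ fragments, but under the rule they were counted as internal.

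The complete 3′ ends fell into 15 end types, each an anticodon with its own last 16 bases, and each numbered within its anticodon from the most to the least abundant. They are shown because all sequences called higher in db/db belong to a few of them. Each line gives the most abundant sequence of a type at a length found in all types of the anticodon, 5′ to 3′ as DNA letters, with capitals where it differs from type 1 of the same anticodon when both are read from the 3′ end.
Arg-ACG type 1: gttcgactcctggctggctcgcca
Arg-ACG type 2: gttcgactcctACctggctcgcca
Arg-CCG type 1: gttcgagtcccttcgtggtcgcca
Arg-CCG type 2: gttcgagtcccAtcTGggtcgcca
Arg-CCT type 1: tgggttcgagtcccatctggggtgcca
Arg-CCT type 2: tgggttcgagtcccaCctggggtgcca
Arg-CCT type 3: tgggttcgagtcccaCcCggggtAcca
Arg-CCT type 4: tgggttcgagtcccaCctggggtAcca
Arg-TCG type 1: gttcgagtcctgccgcggtcgcca
Arg-TCG type 2: gttcgaAtccCTTcgTggtTgcca
Arg-TCG type 3: gttcgaAtccCTTcgTggtTAcca
Arg-TCT type 1: gttcgagtcccggcggagtcgcca
Arg-TCT type 2: gttcgagtcccACcAgagtcgcca
Arg-TCT type 3: gttcgagtcccgCcAgagtcgcca
Arg-TCT type 4: gttcgagtcccggcAgagATgcca
The RefSeq annotation of GRCm38.p6, the build of the deposited data, lists 24 nuclear arginine tRNA genes, of which 6 are for ACG, 3 for CCG and 5 for each of CCT, TCG and TCT. Chromosome 13 holds 8 of them. The 5 TCT genes span 74 to 87 bases and the others 73. For example, the gene n-TRtct5 lies on chromosome 1 from 173390329 to 173390402 and n-TRacg1 on chromosome 13 from 22021144 to 22021216. A tRF with the same letters in several genes could come from any of them, and no type was assigned to a gene here. Only 2 of the 199 sequences, both named Arg-CCG, also lay inside a longer listed sequence of another tRNA, in both cases Arg-CCT.

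The share of arginine fragments in the tRF pool asks whether these tRNAs gave more of the fragments in db/db β-cells. The wild-type libraries held 4.69, 4.88, 4.33 and 4.93% arginine counts and the db/db libraries 6.51, 5.87, 6.33 and 5.40%. The groups did not overlap, with means of 4.71 ± 0.27% and 6.03 ± 0.50% (SD, n = 4 each). The difference of 1.32 percentage points had an exact permutation p of 0.0286, the smallest that 4 against 4 libraries can give, and an adjusted p of 0.0857 over 6 tests, which misses 0.05. Of all counts of a library, as implied by the deposited RPM, arginine fragments were 1.97 ± 0.75% in wild-type and 1.93 ± 1.09% in db/db libraries, a difference of -0.0387 percentage points (exact permutation p = 0.943, adjusted p = 0.971). The difference therefore turned its sign with the total taken, and it concerns the make-up of the tRF pool and not the amount of arginine fragments. In bulk libraries, fewer cells with a fragment and less of it per cell cannot be told apart.

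Arg-TCT, which decodes AGA and was the most abundant arginine tRNA in the pool, also had shares of the tRF pool that did not overlap. Its fragments were 3.19, 2.67, 3.04 and 2.99% of wild-type counts and 4.11, 3.86, 4.61 and 3.23% of db/db counts, without overlap (adjusted p = 0.0857 by the exact permutation test). Of all counts they were 1.22 ± 0.40% and 1.31 ± 0.86% (adjusted p = 0.971, exact permutation test). Arg-ACG made up 0.717 ± 0.213% in wild-type and 0.949 ± 0.099% in db/db libraries, and Arg-CCG 0.334 ± 0.093% and 0.490 ± 0.122%, and both overlapped between genotypes (adjusted p = 0.171 each, exact permutation test). Arg-TCG gave 0.539 ± 0.115% and 0.492 ± 0.032%, and Arg-CCT 0.146 ± 0.040% and 0.148 ± 0.057%. None of the 5 shares by anticodon passed an adjusted p of 0.05.

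**Figure D1:**
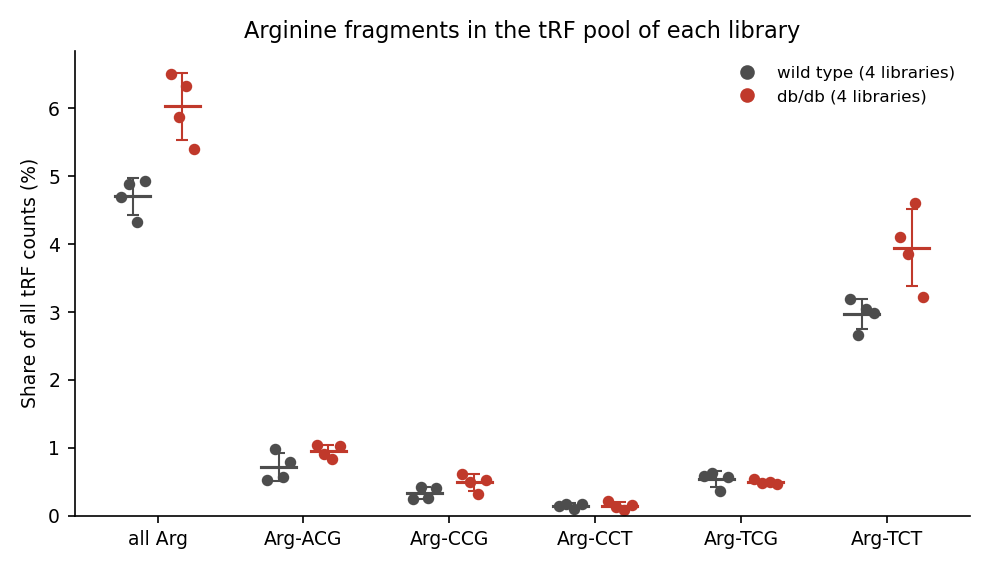
Share of all tRF counts (%) in each library for all arginine fragments and for each anticodon, with points for libraries, horizontal lines for means and bars for the SD of 4 libraries. The db/db points for all arginine fragments lie between 5.40 and 6.51%, above all wild-type points, and those of Arg-TCT lie between 3.23 and 4.61%.

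The listed trimmed 3′ ends, which lack part or all of the CCA, were far rarer in db/db β-cells. They are shown because they carry the clearest decrease among the arginine fragments. The capitals mark the bases that are missing in the trimmed sequence.
Arg-ACG complete end: cctggctggctcgCCA
Arg-ACG trimmed, 16 nt: actcctggctggctcg
Arg-ACG trimmed, 17 nt: gactcctggctggctcg
Arg-ACG trimmed, 18 nt: cgactcctggctggctcg
Arg-TCT complete end: cccaccagagtcgcCA
Arg-TCT trimmed, 25 nt: tgggttcgagtcccaccagagtcgc
The Arg-ACG sequences are all 3 bases short, so they lack the whole CCA and belong to type 1. The Arg-TCT sequence is 2 bases short and belongs to type 2.

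In Arg-ACG, trimmed ends were 3.25, 3.17, 1.97 and 0.987% of all 3′ ends in the wild-type libraries and 0.111, 0.0763, 0.176 and 0.174% in the db/db libraries. Every db/db library was below every wild-type one, and the means were 17.4-fold apart (2.34 ± 1.08% against 0.134 ± 0.049%). In Arg-TCT the wild-type shares were 0.111, 0.357, 0.0990 and 0.101% and the db/db shares 0.0185, 0.0178, 0.0125 and 0.0160%, which puts the means 10.3-fold apart, again without overlap. Without wild-type library 2, the highest, the Arg-TCT difference moved from -0.151 to -0.0871 percentage points. All arginine tRNAs together gave 0.456 ± 0.268% in wild-type and 0.0320 ± 0.0080% in db/db libraries. Each of these 3 differences had p = 0.0286 and adjusted p = 0.0286 by the exact permutation test, the smallest that the design allows. Every sequence of the table had at least 6 counts in 4 or more of the 8 libraries. All 4 trimmed arginine sequences reached this in the 4 wild-type libraries and in at most 2 db/db libraries, so a trimmed end that is scarce in the wild type had no like chance to be listed. The tests describe the listed sequences and are no independent support for fewer trimmed ends in db/db.

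The db/db shares rest on few molecules. The lowest, in db/db library 2, came from 8 trimmed counts among 33914, with a 95% Wilson interval from 0.0120 to 0.0465%. The lowest wild-type share, in library 4, came from 136 among 62027, with an interval from 0.185 to 0.259%. Such intervals cover counting error only.

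As a family, trimmed Arg-ACG fell by 3.43 on the log2 scale (SE 0.46, edgeR adjusted p = 0.000102). Its CPM (counts relative to the scaled tRF total) were 166, 270, 106 and 79.8 in the wild type and 9.4, 7.6, 20.5 and 16.4 in db/db. Trimmed Arg-TCT fell by 2.69 (SE 0.46, adjusted p = 0.000546), from 34.3, 83.1, 28.8 and 30.9 CPM to 6.3, 7.6, 8.1 and 4.8 CPM. Neither family overlapped between genotypes. They were the only families of arginine called at an adjusted p below 0.1 and a fold change above 2, the limits of the study. Among all 130 families tested, 17.7% were called lower and 3.08% higher.

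Listed trimmed ends of other tRNAs were lower in db/db too, under the same limit. Of the 206 trimmed sequences of any tRNA, 120 had at least 6 counts in all wild-type but not all db/db libraries, and 4 the reverse. Of 24 trimmed families of any tRNA 91.7%, or 22 families, were called lower, and their median was -2.75 on the log2 scale. Trimmed ends were rarer in arginine than in the other tRNAs to begin with, and all other names together had 3.15 ± 1.34% in wild-type and 0.515 ± 0.062% in db/db libraries, 6.12-fold apart. Lysine tRNAs had 4.96 ± 1.59% and 0.536 ± 0.061%, 9.27-fold apart.

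Whether the listed trimmed ends differed more in arginine was tested on the log2 odds of trimmed against complete ends, taken as arginine minus the other tRNAs within each library. The values were -2.84, -2.65, -3.04 and -3.11 in wild-type and -3.91, -4.24, -4.16 and -3.68 in db/db libraries. The groups did not overlap, and the difference of -1.09 had p = 0.0286 by the exact permutation test and 0.0571 when adjusted over the 2 comparators, which misses 0.05. Against lysine the difference was -0.43 (exact permutation p = 0.2), with -3.63 ± 0.34 in the wild type and -4.06 ± 0.41 in db/db, so no difference from lysine could be shown. None of the 4 trimmed arginine sequences had at least 6 counts in all db/db libraries, against 79 of the 206 over all tRNAs. The part of the listing in this difference was not tested, so it describes the listed sequences only.

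**Figure D2:**
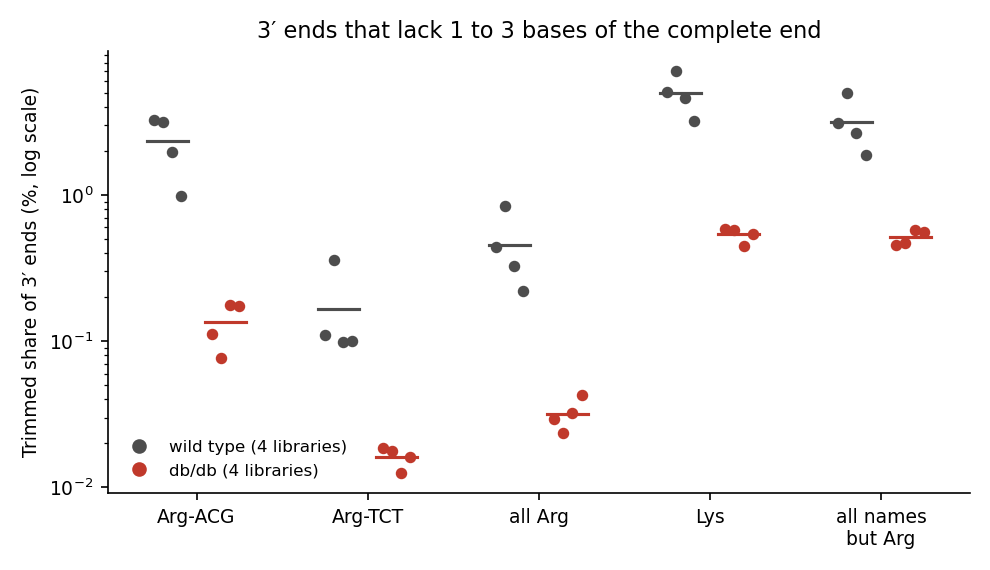
Trimmed fragments as a percentage of trimmed plus complete 3′ fragments in each library, on a log axis, with points for libraries and lines for the means of 4. In each of the 5 columns all db/db points lie below all wild-type points, and the db/db points of Arg-ACG lie between 0.0763 and 0.176%.

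Single sequences were tested over the whole table, and 170 of the 199 passed the filter on low counts. The 29 that did not were 13 complete, 1 trimmed and 15 internal. Of the tested sequences 17 were called higher and 3 lower in db/db, where 5.57% of all 1832 sequences tested were called higher and 9.44% lower. The median log2 fold change was 0.31 over the tested arginine sequences and 0.00 over all sequences. The 17 increases were complete 3′ ends, of which 10 came from Arg-TCT, 4 from Arg-TCG, 2 from Arg-ACG and 1 from Arg-CCT. Among tested complete 3′ ends alone, 17 of 156 were called higher in arginine and 68 of 894 over all tRNAs. Of the 17, 13 had at least 6 counts in every library, and 4 had them in all db/db but not all wild-type libraries, so these 4 were listed through the genotype in which they are high. Arg-CCG had none among 33 tested, of which 6 had an unadjusted p below 0.05 in edgeR and 0 were called by DESeq2.

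The 3 decreases were trimmed sequences, 2 of Arg-ACG and 1 of Arg-TCT. The 17-nt Arg-ACG sequence fell by 4.06 on the log2 scale (SE 0.58, edgeR adjusted p = 2.7e-05), the 18-nt sequence fell by 3.26 (SE 0.66, adjusted p = 0.000814) and the 25-nt Arg-TCT sequence fell by 2.95 (SE 0.55, adjusted p = 0.000347). The groups of all 3 were apart, but these sequences were listed through the wild-type libraries, as given above, so their p-values are no independent support for a decrease. Among trimmed sequences of all tRNAs 85.7% of 168 tested were called lower.

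The increases gathered in a few end types. Summed by type and scaled like the sequences, 3 of the 15 arginine types were called higher by edgeR, where 13.9% of 79 types tested over the table were called higher. None of the 15 was called lower by edgeR or DESeq2, and in edgeR 0 had an unadjusted p below 0.05 in that direction. In DESeq2 the fold limit alone kept Arg-TCG type 1 (-0.58, adjusted p = 0.0107) and Arg-CCT type 1 (-0.63, adjusted p = 0.0570) from such a call. The 3 were Arg-TCT type 3, Arg-TCG type 2 and Arg-ACG type 2, each a scarce relative of a far more abundant end of the same anticodon. This grouping was made after the sequences had been seen. Each of the 3 called types includes sequences listed through the db/db libraries, so their tests and shares are no independent support for an increase.

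Arg-TCT type 3 had the largest log2 fold change of the 15 types. Its counts were 109, 64, 97 and 140 in the wild-type libraries and 697, 626, 2065 and 483 in the db/db libraries. As CPM these were 194, 86.6, 163 and 108 against 673, 1130, 859 and 429. The lowest db/db library was above the highest wild-type one, and the log2 fold change of 2.49 (SE 0.34, edgeR adjusted p = 3.1e-09) is a 5.63-fold increase.

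The 7 listed sequences of Arg-TCT type 3 were called, with log2 fold changes from 2.12 to 2.75 and lengths from 16 to 29 nt. At least 6 counts in every library were present for 5 of them, and the 2 others, of 19 and 24 nt, were among those listed through the db/db libraries. The shortest, cccgccagagtcgcca, rose from 33.9 ± 14.6 to 190 ± 68 CPM (SD, n = 4 each). The 27-nt sequence cgggttcgagtcccgccagagtcgcca rose from 24.5 ± 4.8 to 166 ± 66 CPM, a log2 fold change of 2.75 (SE 0.41, edgeR adjusted p = 4.8e-05). The 29-nt sequence tgcgggttcgagtcccgccagagtcgcca rose from 17.6 ± 6.4 to 101 ± 11 CPM, a log2 fold change of 2.51. Since these sequences overlap, they are not separate pieces of evidence.

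The other ends of Arg-TCT did not pass the test. Type 1, the bulk of Arg-TCT, had 23662 ± 5098 CPM in wild-type and 29581 ± 10777 CPM in db/db libraries, a log2 fold change of 0.32 (SE 0.30). Its most abundant sequence, the 29-nt tccgggttcgagtcccggcggagtcgcca, had a log2 fold change of 0.31 (SE 0.36). Type 2 had 0.18 (SE 0.30) and type 4 had 0.24 (SE 0.35).

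The share within Arg-TCT does not depend on how libraries are scaled to each other. Type 3 was 0.482, 0.359, 0.506 and 0.371% of the complete Arg-TCT counts in the wild type and 2.15, 2.79, 1.52 and 1.55% in db/db, 4.66-fold more on average. Type 4, as scarce in the wild type, had 0.459 ± 0.169% and 0.435 ± 0.074%. For comparison, the shares of 30.2% of 63 types in the table did not overlap between the genotypes.

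Type 2 of Arg-TCT held a further split, at the 18th base from the 3′ end (position 59 in the T loop by the standard numbering, which ends at 76). A common form has G there and a rarer form has A, as the capitals mark in the 27-nt sequences.
Arg-TCT type 2, G form: tgggttcgaGtcccaccagagtcgcca
Arg-TCT type 2, A form: tgggttcgaAtcccaccagagtcgcca
The A form was 12.3, 12.7, 10.9 and 13.7% of the type 2 counts that reach this base in the wild-type libraries and 26.2, 24.1, 21.3 and 23.7% in the db/db libraries. The groups lay well apart, with means of 12.4 ± 1.2% and 23.8 ± 2.0%. Of the A form 10 of 11 sequences were tested and 3 called higher, with a median log2 fold change of 0.96, and of the G form all 13 were tested and 0 called by edgeR or DESeq2, with a median of -0.08 and 0 at an unadjusted p below 0.05. The 27-nt sequences themselves had log2 fold changes of 0.67 (A form, SE 0.32) and -0.36 (G form, SE 0.33), neither called by edgeR. The split was noticed in the data and is given with no test. The A form includes sequences listed through the db/db libraries, such as that of 25 nt.

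**Figure D3:**
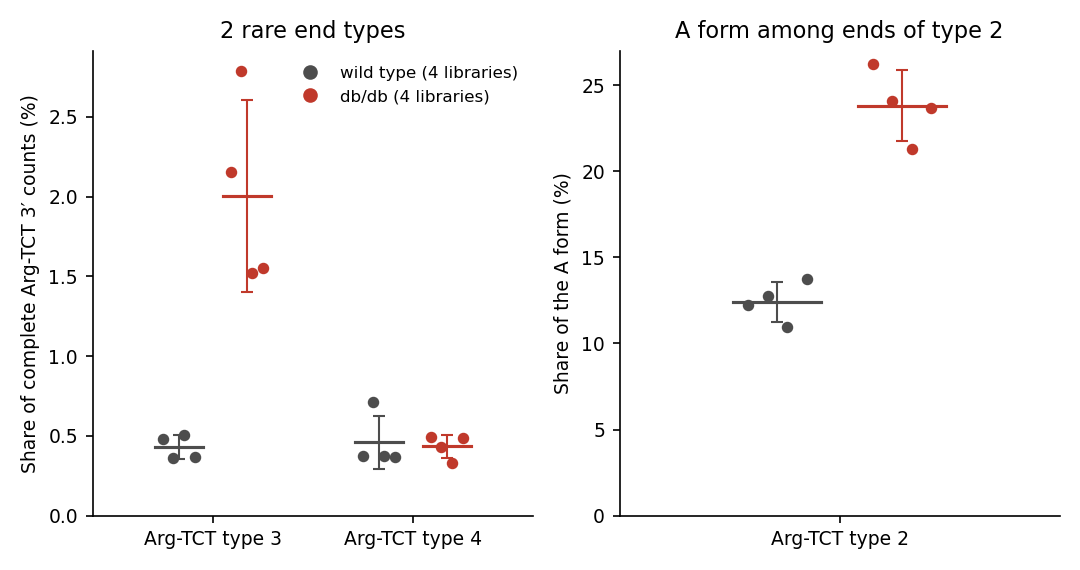
Left, the share (%) of 2 scarce end types among complete Arg-TCT 3′ counts in each library, and right, the share (%) of the A form among Arg-TCT type 2 counts. Points are libraries, lines are means and bars are the SD of 4. Type 3 lies between 1.52 and 2.79% in db/db against 0.359 to 0.506% in wild-type libraries, type 4 overlaps, and the A form lies between 21.3 and 26.2% against 10.9 to 13.7%.

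Arg-TCG, which decodes CGA, held 3 end types. Type 2 had 119, 253, 77.3 and 171 CPM in wild-type and 595, 361, 326 and 352 CPM in db/db libraries. These did not overlap, with a log2 fold change of 1.39 (SE 0.34, edgeR adjusted p = 0.000832), and library 1 was the highest of the db/db group. Several of its 11 sequences had at least 6 counts in all db/db but not all wild-type libraries. The 27-nt sequence, for example, had 0, 7, 0 and 14 counts in wild-type and 37, 12, 28 and 22 in db/db libraries. The sum and share of type 2 thus draw on sequences listed through db/db, and its p-value is no independent support for an increase. With the implied totals of all counts type 2 had 0.81 (edgeR adjusted p = 0.682) and was not called, nor were its sequences. Of 9 tested sequences of this type 4 were called, with log2 fold changes from 1.19 (cccttcgtggttgcca) to 1.97 (tcccttcgtggttgcca). The other named ones were gttcgaatcccttcgtggttgcca, at 1.39 (SE 0.49), and tgagggttcgaatcccttcgtggttgcca, at 1.35 (SE 0.46). Of the 4 calls only that of tcccttcgtggttgcca held without each library in turn, and it is one of those listed through the db/db libraries. The other three were lost without wild-type library 1 (edgeR adjusted p from 0.153 to 0.174) and without db/db library 1 (0.155 to 0.31), and 1 or 2 of them without wild-type libraries 2, 3 or 4 (0.101 to 0.13).

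Type 3 of Arg-TCG, which differs from type 2 in a single base, had 149 ± 73 and 242 ± 43 CPM and was not called (log2 fold change 0.70, SE 0.35), except without wild-type library 2, where it just passed both limits (adjusted p = 0.0650). Type 1, the bulk of Arg-TCG, had 5316 ± 1399 and 4086 ± 1061 CPM, a log2 fold change of -0.38 (SE 0.30, edgeR adjusted p = 0.435), and with RLE factors -0.58 (adjusted p = 0.0470). Its most abundant sequence, caggttcgagtcctgccgcggtcgcca, had -0.26 (SE 0.36). Within complete Arg-TCG counts type 2 went from 2.79 ± 1.28 to 9.09 ± 4.02% and type 1 from 94.6 ± 2.4 to 85.6 ± 5.6%, both without overlap. These shares are parts of the same total, and type 2 was partly listed through db/db, as given above. Over the table the shares of 30.2% of 63 types did not overlap.

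Arg-ACG, whose A is read as inosine in the mature tRNA, held 2 end types. Type 2 had 157, 175, 155 and 257 CPM in wild-type and 338, 309, 474 and 391 CPM in db/db libraries, again apart, with a log2 fold change of 1.02 (SE 0.33, edgeR adjusted p = 0.0182). This lies just inside the fold limit, and it was not called with TMM computed on the types (0.88), RLE factors (0.81), DESeq2 (0.81) or implied totals of all counts (0.69, edgeR adjusted p = 0.682). It also fell under the limit without wild-type library 1 (0.99), 2 (0.98) or 3 (0.996), or without db/db library 3 (0.93). Within complete Arg-ACG counts type 2 was 2.44, 2.03, 2.64 and 3.39% in the wild type and 4.32, 3.26, 4.68 and 4.5004% in db/db, which overlap. Several of its 8 sequences were listed through the db/db libraries. The 18-nt sequence, for example, had 10, 16, 4 and 35 counts in wild-type and 37, 12, 127 and 37 in db/db libraries. The p-value of type 2 is therefore no independent support for an increase. The called sequences of type 2 were cctacctggctcgcca, at 1.42 (SE 0.52), and taggttcgactcctacctggctcgcca, at 1.12 (SE 0.37). The first is also listed through the db/db libraries, and its call was lost without wild-type library 1, 2 or 3 or db/db library 1 or 4 (edgeR adjusted p from 0.117 to 0.191), and that of the second without wild-type library 1 or 2 (0.135 and 0.147). Type 1 had 6930 ± 1205 and 8646 ± 959 CPM, a log2 fold change of 0.32 (SE 0.29), and its most abundant sequence by mean CPM, cctggctggctcgcca, had the same fold change of 0.32 (SE 0.32).

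Arg-CCT and Arg-CCG had no called type. In Arg-CCT the 27-nt sequence of type 3, tgggttcgagtcccacccggggtacca, was called higher, from 23.6 ± 5.2 to 57.5 ± 9.1 CPM (log2 fold change 1.27, SE 0.42, edgeR adjusted p = 0.0502). The call was lost without wild-type library 1 or 2 or db/db library 4 (adjusted p from 0.108 to 0.132). As a type it had 0.95 (SE 0.38), under the fold limit, and 1.31 without wild-type library 4. Within complete Arg-CCT counts type 3 went from 4.22 ± 1.596 to 9.50 ± 2.63%, type 2 from 16.8 ± 3.2 to 24.02 ± 0.96% and type 1 from 76.4 ± 3.7 to 62.7 ± 2.0%, none with overlap between genotypes, while type 4 overlapped. These shares are parts of the same total and not separate results. Over the table the shares of 30.2% of 63 types did not overlap. The most abundant Arg-CCT sequence, gttcgagtcccatctggggtgcca of type 1, had 570 ± 208 and 382 ± 93 CPM (log2 fold change -0.58, SE 0.35). In Arg-CCG type 1 had 0.63 (SE 0.29) and type 2 had -0.18 (SE 0.31), and the most abundant sequence gttcgagtcccttcgtggtcgcca had 0.55 (SE 0.32). The shares of both types within Arg-CCG overlapped.

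Under the implied totals of all counts, the calls of all 7 sequences of Arg-TCT type 3 and of the 3 trimmed sequences held, and none of the other 10 did. With the library sizes that the deposited log2 values imply, the median type lies at -0.33 and no arginine type was called. Arg-TCT type 3 then had a log2 fold change of 2.21 with an adjusted p of 0.387, and Arg-TCG type 2 had 0.53.

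**Figure D4:**
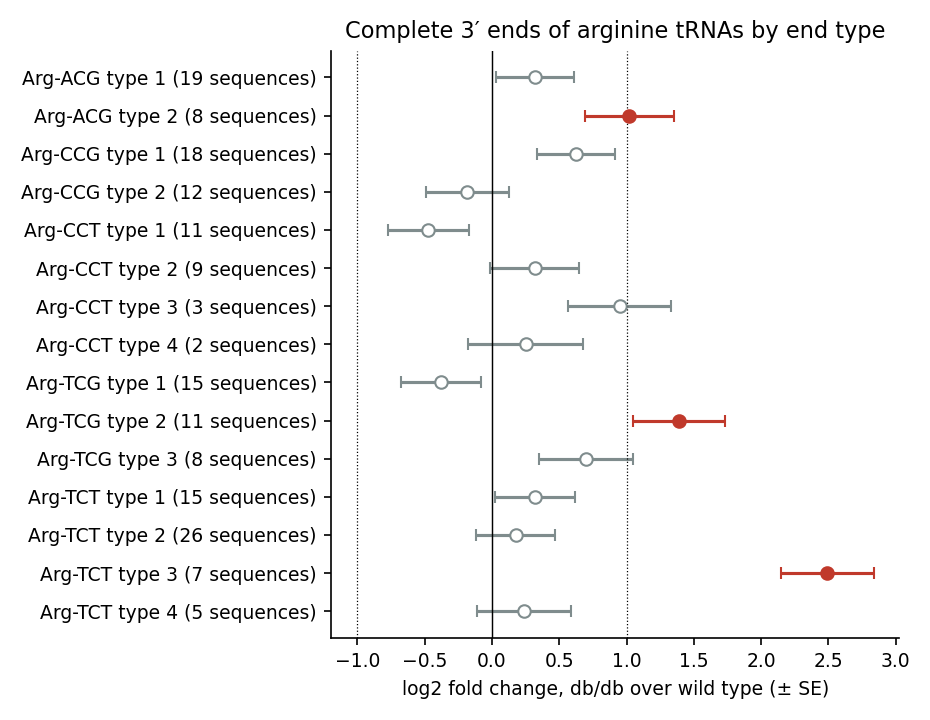
Log2 fold change (db/db over wild type, with SE bars) of the 15 end types of complete arginine 3′ fragments, with filled points for the 3 called types and dotted lines at a fold change of 2. Arg-TCT type 3 stands at 2.49, and the most abundant type of each anticodon lies between -0.47 and 0.63.

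Summed over their types, the 5 complete 3′ families were not called by edgeR or DESeq2, and 2 had an unadjusted p below 0.05. The log2 fold changes were 0.58 for Arg-ACG (SE 0.26), 0.65 for Arg-CCG (SE 0.27), 0.04 for Arg-CCT (SE 0.29), 0.02 for Arg-TCG (SE 0.27) and 0.59 for Arg-TCT (SE 0.27), with edgeR adjusted p-values from 0.141 to 0.965. Families were scaled by factors of their own, which put the median family at 0.07, so these values are not on the scale of the types.

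Internal fragments were scarce and none was called. The 26 sequences belonged to Arg-CCG (12), Arg-CCT (7), Arg-ACG (3), Arg-TCG (3) and Arg-TCT (1), and 11 were tested. As families they had log2 fold changes of 0.54 in Arg-ACG, 0.64 in Arg-CCG, 0.65 in Arg-CCT and 0.41 in Arg-TCG, with SE from 0.36 to 0.51, and the single Arg-TCT sequence had 5 to 17 counts per library and was not tested. By mean CPM the most abundant tested ones were tcagaagattgagggttcgagtcccttc of Arg-CCG, at 0.56 (SE 0.60), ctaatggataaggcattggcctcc of Arg-CCT, at -0.25 (SE 0.59), tcagaagattgagggttcgaatcccttc of Arg-TCG, at 0.40 (SE 0.58), and gggccagtggcgcaatggataac of Arg-ACG, at -0.11 (SE 0.55). Of the 11 tested sequences edgeR gave 1 an unadjusted p below 0.05, and DESeq2 called 0, so no difference was detectable at this depth. The 3 Arg-ACG sequences, counted as internal by the rule, may be 5′ fragments, as given above.

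The length of a complete 3′ fragment places its 5′ cut, since all end at position 76. The count-weighted mean length of all arginine fragments was 24.13 ± 0.60 nt in wild-type and 24.01 ± 0.35 nt in db/db libraries (adjusted p = 0.771, exact permutation test over 6 comparisons). For single anticodons the adjusted p-values ran from 0.686 to 0.771.

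The anticodons had length profiles of their own. Arg-TCG had 42.7% of its complete counts at 27 nt, which start at position 50 in the T stem. Arg-CCT had 43.3% and Arg-CCG 25.99% at 24 nt, which start at position 53, the last base of the T stem, with gttcga reaching into the T loop. Arg-TCT had peaks at 29 nt (24.8%) and 27 nt (20.8%), and Arg-ACG at 27 nt (19.5%), 16 nt (13.5%) and 18 nt (13.2%). In all other tRNAs together, 28 and 29 nt led with 19.99 and 22.7%. These shares are means of 8 libraries and are given as a description.

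**Figure D5:**
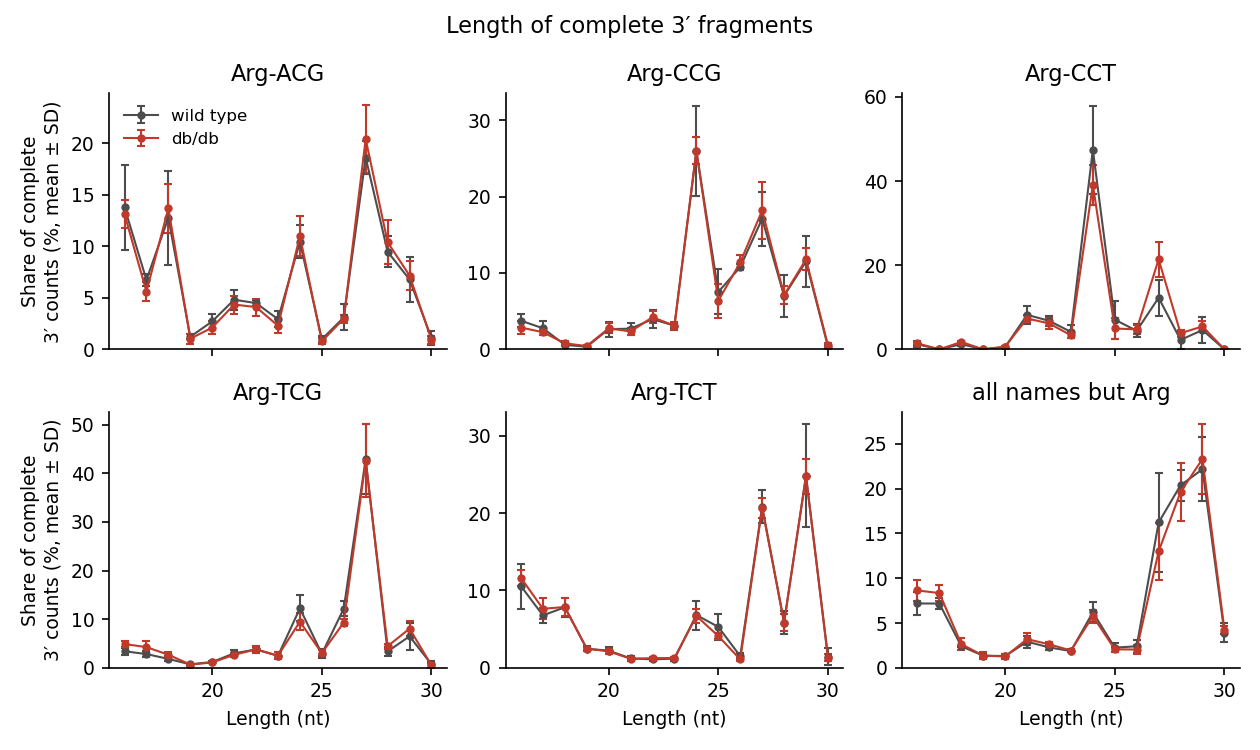
Share of complete 3′ counts (%) at each length from 16 to 30 nt, as means of 4 libraries with SD bars, for each arginine anticodon and for all other tRNAs. The curves of the genotypes overlie each other for most lengths, and Arg-CCT at 27 nt has 12.3 ± 4.3% in wild-type and 21.4 ± 4.2% in db/db libraries.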

How the data were processed

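Small RNA of 8 β-cell libraries was analysed. The authors made libraries with unique molecular identifiers, collapsed identical reads over 16 nt, aligned them to GRCm38.p6 and matched them without mismatch to mature tRNAs with bowtie. The deposited table gives per sequence the authors' count of molecules, the authors' RPM rounded to whole numbers (used as a score) and the authors' normalised log2 value, with no method stated in the sources used here. A column with the authors' own direction of change was not used. The counts were used in every test, and the RPM and log2 values only for library totals in alternatives.

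Fragments ending in CCA were complete, and those ending 1 to 3 bases inside such an end, by an overlap of at least 12 bases, were trimmed. The quasi-likelihood test of edgeR 4.0.16 (R 4.3.3) was run on the counts after filterByExpr (minimum 10, total 15) and TMM, with Benjamini-Hochberg adjustment over the whole table. A call needed an adjusted p below 0.1 and a fold change above 2. End types (the last 16 bases) used the TMM factors of the sequences. SE was derived from the log2 fold change and its F statistic. Log2 odds used a pseudocount of 0.5. Shares and mean lengths were compared by two-sided exact permutation tests over 70 assignments, with a threshold of 0.05 on the adjusted p. On simulated counts 98% of 200 changed sequences were recovered among 2226, with 5 false calls, and 90% of 10 changed end types among 82, with 0. The planted changes were all of the same size, above the fold limit, in features that were not scarce, with a single dispersion. These rates therefore do not hold for smaller changes or for scarce sequences. Named sequences were the most abundant tested one of each anticodon and end by mean CPM, and up to 5 called ones per anticodon and direction with the largest change. The members and lists were chosen with earlier results of these data known. Libraries are pools of mice, and nothing in the labels pairs them. Where the labels do not show separate sorts, p-values measure only the spread between these libraries. Alternatives included DESeq2 1.42.0.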

Additional observations from a re-analysis of the deposited data

Results flagged for a closer look

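Of 136 groups of 4 values examined, 13 had a library that stood apart from the other three of its genotype by Dixon's criterion, and chance alone gives about 1 in 20. In wild-type library 2 the trimmed share of Arg-TCT was 0.357% (next 0.111%) and the trimmed Arg-TCT family was at 83.1 CPM (next 34.3). In wild-type library 3 the complete Arg-TCG family was at 3509 CPM (next 5452), Arg-CCG type 1 at 1785 CPM (next 2425) and Arg-CCT type 1 at 668 CPM (next 1205). In wild-type library 1 Arg-TCT type 2 was at 10092 CPM (next 6842), and in wild-type library 4 the mean length of complete Arg-CCT fragments was 24.8 nt (next 24.1).

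In db/db library 1 Arg-TCG type 2 was at 595 CPM (next 361) and its 24-nt sequence gttcgaatcccttcgtggttgcca at 78.2 CPM (next 40.9). In db/db library 2 Arg-CCT type 3 was at 153 CPM (next 107). In db/db library 3 the Arg-TCT sequence tccgggttcgagtcccggcggagtcgcca was at 14258 CPM (next 8279) and the Arg-ACG sequence gggccagtggcgcaatggataac at 6.65 CPM (next 21.7). In db/db library 4 the mean length of complete Arg-ACG fragments was 23.6 nt (next 22.7).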

How the results depend on the processing

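The 2 called arginine families were the same under every alternative that kept the 4 ends, and with trimmed fragments counted as internal 2 families were called. The count of called arginine sequences, 20 in the main analysis, was 13 at an adjusted p below 0.05, 10 with implied totals of all counts, 6 with the library sizes of the deposited log2 values and 11 when sequences 1 or 2 nt apart were merged, and it ran from 15 to 28 when 1 library was left out (28 without wild-type library 4). The 10 and the 6 were 7 and 3 higher, and 3 lower in both, against 17 higher and 3 lower, and the median of all sequences moved to -0.36 and -0.51. The count of called end types, whose alternatives were chosen after seeing the data, was 3 in the main analysis, 1 with implied totals, 0 with the log2 library sizes and 2 to 4 without 1 library. The trimmed share difference ran from -0.503 to -0.298 percentage points without 1 library, with an adjusted p of 0.0571, the smallest that 7 libraries allow. Arg-TCT type 3 kept its call in each case but the log2 library sizes. No paired analysis was possible because no replicate number, litter or sort day is given in the labels. The library names fall into letters A to D and F to I, each with 2 libraries of a genotype, and nothing says what this means. With this set as a further term, chosen after seeing the data, 18 sequences, the same 2 families and the same 3 end types were called, and 1 sequence each of Arg-ACG type 2 and Arg-TCT type 2 lost its call. With ends 1 to 2 bases short only, the difference for all arginine was -0.0907 percentage points (0.101% against 0.0106%, against -0.424 in the main analysis), since Arg-ACG then had no trimmed sequence. Of the arginine sequences, 15 of 26 internal, 13 of 169 complete and 1 of 4 trimmed ones had too few counts to be tested.

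A further 63 values over 29 results turned their sign under an alternative, none of them past its threshold in the main analysis or under that alternative, and the cause was not tested. As a share of the implied total of all counts, the db/db minus wild-type difference was -0.0387 percentage points for all arginine fragments (main analysis 1.32), -0.0203 for Arg-ACG, -0.00249 for Arg-CCG and -0.0226 for Arg-CCT, and for Arg-CCT it was -0.000585 without the 3 most abundant sequences and -0.0230 to 0.0217 without 1 library. The mean length difference ran without 1 library from -0.281 to 0.158 nt for all arginine fragments, -0.0686 to 0.521 nt for Arg-ACG and -0.386 to 0.157 nt for Arg-TCT. All values that follow are log2 fold changes. With implied totals, complete Arg-ACG was at -0.062, Arg-CCG at -0.027, Arg-CCT at -0.67 and Arg-TCG at -0.60, internal Arg-ACG at -0.29 and Arg-TCG at -0.26, Arg-ACG type 1 at -0.087, Arg-CCT types 2 and 4 at -0.10 and -0.31, Arg-TCT types 2 and 4 at -0.10 and -0.15, and tcagaagattgagggttcgaatcccttc at -0.00273. With the log2 library sizes, complete Arg-ACG was at -0.19, Arg-CCG at -0.23, Arg-CCT at -0.89 and Arg-TCG at -0.68, internal Arg-ACG at -0.72, Arg-CCG at -0.23, Arg-CCT at -0.18 and Arg-TCG at -0.55, Arg-ACG type 1 at -0.22, Arg-CCT types 2 and 4 at -0.29 and -0.56, Arg-TCG type 3 at -0.094, Arg-TCT types 2 and 4 at -0.17 and -0.28, and the sequences cctggctggctcgcca, gttcgagtcccttcgtggtcgcca and tcagaagattgagggttcgaatcccttc at -0.023, -0.10 and -0.24. Arg-TCT type 2 was at -0.044 with DESeq2 and with RLE factors. Complete Arg-CCT and Arg-TCG were at -0.19 and -0.25 with TMM of the sequences and at -0.023 and -0.13 without a normalisation factor, where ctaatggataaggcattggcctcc and gggccagtggcgcaatggataac were at 0.030 and 0.070. Without 1 library, complete Arg-CCT ran from -0.15 to 0.16, complete Arg-TCG from -0.14 to 0.11, Arg-CCG type 2 from -0.36 to 0.047, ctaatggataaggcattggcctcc from -0.69 to 0.22, tcagaagattgagggttcgagtcccttc from -0.054 to 0.97, caggttcgagtcctgccgcggtcgcca from -0.47 to 0.093 and gggccagtggcgcaatggataac from -0.29 to 0.25.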
